A study of Mus musculus with 6 samples.

Results

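A set of 10 genes known from regulatory T cells was followed in restimulated mouse CD4+ T cells: Foxp3, Ikzf2, Ikzf4, Nrp1, Lrrc32, Gpr83, Nt5e, Entpd1, Ebi3 and Il1r2. They were chosen by name, and all 10 of the 10 had a probe set with a single gene symbol, among 19937 genes measured. The study compared 2 cultures restimulated with anti-CD3 and anti-ICOS with 4 cultures restimulated with anti-CD3 alone, each read on 1 Affymetrix Mouse Gene ST array. All 6 cultures began as naive CD4+ cells from the spleen of B6 mice and received anti-CD3 with anti-CD28 for a first 2 days and then a night of rest. They were then held with the antibodies for 20 min, which a goat anti-hamster antibody cross-linked for 8 h. The labels call the arrays biological replicates and do not say whether they came from separate animals, so the p-values cover only the spread among these arrays, which may be technical.

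Regulatory T cells restrain immune responses, and the transcription factor Foxp3 defines them. ICOS is a costimulatory receptor of the CD28 family that activated T cells carry, and its signal runs largely through phosphoinositide 3-kinase. In the mouse several genes of the regulatory programme, Foxp3 aside, are also switched on in conventional T cells by activation, and some are used by other blood cells: CD39 by B cells and myeloid cells, neuropilin-1 by dendritic cells and endothelium, and the decoy receptor for interleukin-1 by neutrophils. The probe sets here read whole cultures, in which fewer cells of a type and less RNA per cell cannot be told apart.

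Values are log2(intensity + 16), a scale on which a difference of 1 is a doubling of the intensity with its offset, and each gene is compared only with itself across arrays. The arrays had similar medians, from 109 to 114 in intensity. Anti-CD3 replicate 4 stood apart from the other anti-CD3 arrays in many genes, above their range in 34.5% of all genes and below it in 42.5%. Its values correlated at 0.9960 and 0.9963 with the anti-ICOS arrays. With anti-CD3 replicates 1 to 3 they correlated less closely, at 0.9864, 0.9871 and 0.9822. Why replicate 4 was closer to the other group is not given by the labels and was not tested. The 10 genes are therefore given with all 4 anti-CD3 arrays, without replicate 4, and against replicate 4 alone. Defining transcripts of the labelled cell type were read on every array, Cd4 at 11.95 and 12.00 with anti-ICOS against 12.45, 12.42, 12.32 and 12.05 with anti-CD3 alone, and Cd3e at 12.40 and 12.43 against 12.75, 12.81, 12.72 and 12.45.

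With anti-ICOS, 9 of the 10 genes lay above anti-CD3 replicates 1 to 3 on both arrays, beside 28.5% of all genes. Foxp3 and Lrrc32, the gene of the surface protein GARP, lay about 2-fold above those replicates. Anti-CD3 replicate 4 also lay above replicates 1 to 3 in 9 of the 10, beside 34.5% of all genes. For Foxp3, Ikzf2, Ikzf4, Gpr83 and Ebi3 it reached or passed the anti-ICOS values. With all 6 arrays weighted alike, 0 of the 10 genes passed the test in either direction (limma, adjusted p under 0.05 over all genes), beside 0.271% of all genes called higher and 0% lower. At an unadjusted p under 0.05 there were 4 of the 10, all higher, but the share of all genes at that level was not counted. Without replicate 4, 7 of the 10 rose and 0 fell, beside 17.1% of all genes called higher and 12.7% lower. With array weights, which discount replicate 4, 8 of the 10 rose and 0 fell, beside 22.8% of all genes called higher and 24.4% lower. The fit against replicate 4 alone called 0 of the 10, beside 0.176% of all genes called higher and 0% lower.

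**Figure D1:**
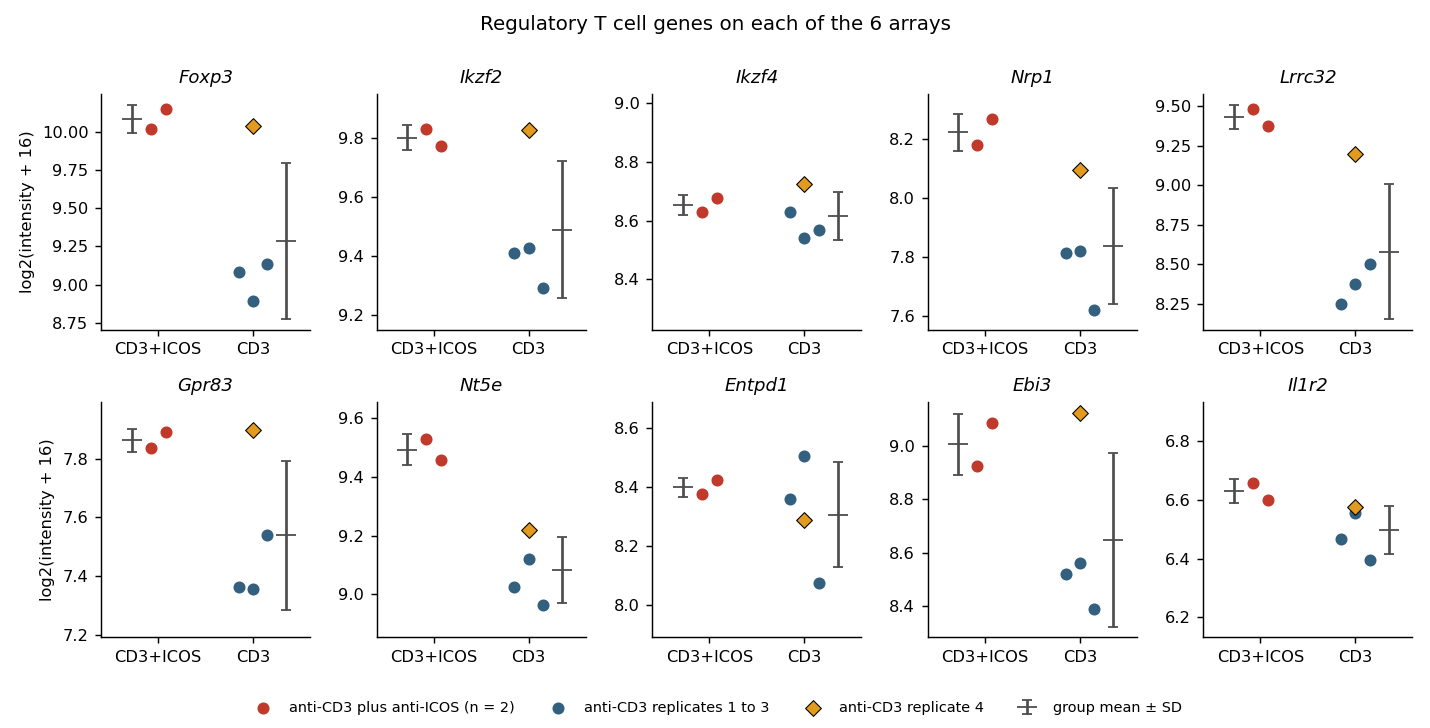
Log2(intensity + 16) of the 10 genes on each array, with anti-CD3 plus anti-ICOS on the left of each panel and anti-CD3 on the right. Points are arrays, the diamond is anti-CD3 replicate 4, bars are group means ± SD (n = 2 and n = 4), and each panel has its own axis. For Foxp3 the diamond, at 10.04, lies between the anti-ICOS arrays at 10.02 and 10.15, while for Nt5e, at 9.22, it lies below both.

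Foxp3, the lineage factor of regulatory T cells, read 10.02 and 10.15 with anti-ICOS, against 9.08, 8.89, 9.13 and 10.04 in anti-CD3 replicates 1 to 4. Replicate 4 fell between the anti-ICOS arrays and the other 3 anti-CD3 arrays lay about 1 log2 unit lower, so the groups overlapped through 1 array. The group means were 10.08 ± 0.092 (SD, n = 2) with anti-ICOS and 9.29 ± 0.51 (SD, n = 4) with anti-CD3. The difference of 0.80 ± 0.30 (SE, limma adjusted p = 0.417) did not pass the test. Without replicate 4 Foxp3 rose by 1.05 ± 0.089 (adjusted p = 0.000266), a fold of 2.07 on the offset scale. With replicate 4 alone as reference it was 0.046, with a 95% interval from -0.23 to 0.32.

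The upstream sequence of Foxp3 is shown because Foxp3 defines the set. RefSeq (GRCm38.p6) gives 2 starts on the plus strand, and the 250 bases before each, at chrX:7579426-7579675 and chrX:7580233-7580482, are printed 5′ to 3′. Capitals mark a TATA box (TATAAA), the NFAT core (GGAAA, or TTTCC on the other strand) and a STAT motif (TTCNNNGAA). In the second window the NFAT core and the STAT motif overlap.
Foxp3 upstream of the first start: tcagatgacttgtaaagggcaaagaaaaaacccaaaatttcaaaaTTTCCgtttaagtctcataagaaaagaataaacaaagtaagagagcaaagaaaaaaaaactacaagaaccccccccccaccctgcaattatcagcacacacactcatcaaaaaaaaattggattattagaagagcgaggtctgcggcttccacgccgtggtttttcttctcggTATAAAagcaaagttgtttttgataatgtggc
Foxp3 upstream of the second start: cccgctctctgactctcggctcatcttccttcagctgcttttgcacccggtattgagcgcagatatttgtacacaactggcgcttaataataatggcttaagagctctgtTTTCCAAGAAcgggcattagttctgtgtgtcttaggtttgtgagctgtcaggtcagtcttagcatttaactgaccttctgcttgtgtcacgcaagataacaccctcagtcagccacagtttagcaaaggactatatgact
The first window holds an NFAT core and a TATA box, which begins 32 bases before the start, and the second holds an NFAT core and the match TTCCAAGAA to the STAT motif. Over 32851 windows of this length upstream of RefSeq starts, 55.6% held an NFAT core, 12.4% a TATA box and 7.02% a STAT motif on either strand.

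Ikzf2 and Ikzf4 encode Helios and Eos, zinc finger proteins of the Ikaros family that act with Foxp3 in regulatory T cells. Ikzf2 read 9.83 and 9.77 with anti-ICOS, against 9.41, 9.43, 9.29 and 9.83 in anti-CD3 replicates 1 to 4. Replicate 4 again sat with the anti-ICOS arrays. The difference was 0.31 ± 0.15 (SE, adjusted p = 0.423) with all arrays, and without replicate 4 Ikzf2 rose by 0.43 ± 0.070 (adjusted p = 0.00434). Set against replicate 4 only it was -0.027, with an interval from -0.25 to 0.19.

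Ikzf4 barely moved between arrays, at 8.63 and 8.68 with anti-ICOS against 8.63, 8.54, 8.57 and 8.73 with anti-CD3. Its highest array was anti-CD3 replicate 4, and the lower anti-ICOS array exceeded replicate 1 only in the third decimal. Its differences were 0.038 ± 0.079 (adjusted p = 0.791) with all arrays and 0.075 ± 0.064 (adjusted p = 0.388) without replicate 4, and quantile normalization turned the direction, to -0.068. Set against replicate 4 only it was -0.071. The interval with all arrays ran from -0.15 to 0.22.

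The other Ikaros family genes and their chromatin partners, 7 measured of 7 listed, gave 0 calls with all arrays and a median difference of 0.073, beside -0.031 over all genes. Ikzf3, which encodes Aiolos, differed by -0.21 ± 0.072 (adjusted p = 0.414), Ikzf1, which encodes Ikaros itself, by -0.13 ± 0.073 (adjusted p = 0.430), and the remodeller gene Chd4 by 0.13 ± 0.081 (adjusted p = 0.452). For Ikzf3 and Ikzf1 both anti-ICOS arrays lay below all 4 anti-CD3 arrays, replicate 4 included. Without replicate 4 Ikzf3 fell by 0.23 (adjusted p = 0.0345) and Ikzf5 rose by 0.32 (adjusted p = 0.0101), 1 of the 7 in each direction, beside 17.1% of all genes called higher and 12.7% lower. With replicate 4 as the only reference they differed by -0.15 and -0.11.

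Lrrc32 encodes GARP, which holds latent TGF-beta on the surface of activated regulatory T cells. It read 9.49 and 9.38 with anti-ICOS, against 8.25, 8.37, 8.50 and 9.20 with anti-CD3. The anti-ICOS arrays were the highest of the 6, and replicate 4 stood well above replicates 1 to 3. The means were 9.43 ± 0.077 (SD, n = 2) with anti-ICOS and 8.58 ± 0.43 (SD, n = 4) with anti-CD3, a difference of 0.85 ± 0.25 (SE, adjusted p = 0.414). Without replicate 4 Lrrc32 rose by 1.06 ± 0.088 (adjusted p = 0.000243), a fold of 2.08, the most of the 10 genes in that comparison. With replicate 4 alone as reference the difference was 0.23, with an interval from -0.041 to 0.51.

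Of 16 TGF-beta genes that were listed and measured, 0 passed with all arrays (median 0.093), and without replicate 4 there were 8 higher and 2 lower, beside 17.1% and 12.7% of all genes. Skil, a repressor of SMAD signalling, differed by 0.43 ± 0.12 (adjusted p = 0.404), Itgb8, an integrin chain that activates TGF-beta, by 0.46 ± 0.14 (adjusted p = 0.414), and the pro-protein convertase gene Furin by 0.35 ± 0.13 (adjusted p = 0.417). In each of these 3 both anti-ICOS arrays exceeded all 4 anti-CD3 arrays, and each rose without replicate 4 (adjusted p = 0.0204, 0.0101 and 0.00592). With replicate 4 alone as reference the differences were 0.33, 0.22 and 0.082. Tgfb1, whose product GARP carries, differed by 0.035 ± 0.072 (adjusted p = 0.790), with overlapping groups.

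Nt5e encodes CD73, the ectoenzyme that turns AMP into adenosine. It read 9.53 and 9.46 with anti-ICOS, against 9.03, 9.12, 8.96 and 9.22 with anti-CD3. The groups did not overlap, and replicate 4 was the nearest anti-CD3 array but stayed closer to its own group than to the anti-ICOS arrays. The difference of 0.41 ± 0.090 (SE, adjusted p = 0.252, unadjusted p = 0.00256) had the smallest p of the 10 genes and did not pass. Without replicate 4 Nt5e rose by 0.46 ± 0.072 (adjusted p = 0.00356). Against replicate 4 alone the difference was 0.27, and Nt5e was the one gene of the 10 whose interval, from 0.050 to 0.50, excluded 0 there (adjusted p = 0.816).

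Entpd1 encodes CD39, which acts before CD73 by cutting ATP and ADP to AMP. Its values were 8.38 and 8.42 with anti-ICOS, against 8.36, 8.51, 8.08 and 8.29 with anti-CD3. Both anti-ICOS arrays fell inside the anti-CD3 range, which here was set by replicates 2 and 3 and not by replicate 4. The difference was 0.092 ± 0.12 (adjusted p = 0.666), with an interval from -0.19 to 0.37, and it was -0.0047 under quantile normalization. It was 0.086 ± 0.12 without replicate 4 (adjusted p = 0.596) and 0.11 against replicate 4 alone, with an interval from -0.26 to 0.48. Entpd1 was the one gene of the 10 in which replicate 4 lay within replicates 1 to 3.

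Among the other genes of adenosine and ATP handling 13 of 18 listed were measured, 0 passed with all arrays and the median was 0.038. The adenosine kinase gene Adk differed by -0.43 ± 0.14 (adjusted p = 0.414), the ATP-gated channel gene P2rx7 by 0.66 ± 0.21 (adjusted p = 0.414) and the nucleoside transporter gene Slc29a1 by -0.24 ± 0.088 (adjusted p = 0.417). Without replicate 4, 2 of the 13 rose (P2rx7 and P2rx4) and 2 fell (Adk and Slc29a1), shares near the 17.1% and 12.7% of all genes, and against replicate 4 alone 0 of the 13 passed.

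Nrp1 encodes neuropilin-1, a co-receptor for semaphorins and VEGF that marks thymus-derived regulatory T cells in the mouse. It read 8.18 and 8.27 with anti-ICOS, against 7.81, 7.82, 7.62 and 8.10 with anti-CD3. The groups did not overlap, but replicate 4 lay just under the lower anti-ICOS array. The difference was 0.39 ± 0.13 (SE, adjusted p = 0.414), and without replicate 4 Nrp1 rose by 0.47 ± 0.082 (adjusted p = 0.00535). Against replicate 4 alone it was 0.13, with an interval from -0.13 to 0.38.

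A pair of semaphorin receptor genes beside Nrp1 stood higher with anti-ICOS than on every anti-CD3 array. Plxnd1, a plexin that signals for neuropilins, read 9.37 and 9.48 with anti-ICOS, against 8.47, 8.44, 8.29 and 8.72 with anti-CD3, and rose by 0.94 ± 0.12 (SE, adjusted p = 0.0450). Nrp2, the paralog of Nrp1, read 7.48 and 7.29 against 6.45, 6.58, 6.44 and 6.77, and differed by 0.83 ± 0.12 (adjusted p = 0.0575). In both, replicate 4 was the highest anti-CD3 array yet remained well short of the anti-ICOS values.

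Plxnd1 lost its call when any single array except anti-CD3 replicate 4 was left out (adjusted p from 0.119 to 0.327) and against replicate 4 alone (difference 0.71, adjusted p = 0.0892). Vegfa, a ligand of neuropilins and a target of hypoxia signalling, read 7.78 and 7.69 with anti-ICOS, against 9.24, 9.37, 9.17 and 7.47 with anti-CD3. Replicate 4 was the lowest of all 6 arrays for Vegfa, and the difference of -1.08 ± 0.51 did not pass (adjusted p = 0.423). Without replicate 4 Vegfa fell by 1.53 (adjusted p = 5.2e-05), and against replicate 4 alone the difference was 0.26 (adjusted p = 0.928). Over the 15 semaphorin and VEGF genes 1 was called with all arrays, and the median was 0.013.

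Gpr83, a G protein-coupled receptor gene typical of mouse regulatory T cells, read 7.84 and 7.89 with anti-ICOS, against 7.36, 7.36, 7.54 and 7.90 with anti-CD3. Its highest value was that of anti-CD3 replicate 4, level with the anti-ICOS arrays. The difference was 0.32 ± 0.16 (SE, adjusted p = 0.423). Without replicate 4 Gpr83 rose by 0.44 ± 0.078 (adjusted p = 0.00565), and against replicate 4 alone the difference was -0.035, with an interval from -0.28 to 0.21.

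Ebi3 encodes the beta chain shared by interleukin-27 and interleukin-35, the second of which regulatory T cells secrete. It read 8.92 and 9.09 with anti-ICOS, against 8.52, 8.56, 8.39 and 9.12 with anti-CD3. Replicate 4 was the highest of all 6 arrays. The difference was 0.36 ± 0.20 (SE, adjusted p = 0.430), without replicate 4 Ebi3 rose by 0.52 ± 0.082 (adjusted p = 0.00365), and against replicate 4 alone the difference was -0.12, with an interval from -0.37 to 0.14.

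Its partner chain and the rest of the family were read beside it. Il12a, which encodes the alpha chain of interleukin-35 and of interleukin-12, read 7.49 and 7.33 with anti-ICOS, against 7.08, 7.19, 7.12 and 7.43 with anti-CD3, and replicate 4 lay between the anti-ICOS arrays. Of the 10 IL-12 family genes 0 passed with all arrays (median 0.11), 5 rose and 0 fell without replicate 4, beside 17.1% and 12.7% of all genes, and 0 passed against replicate 4 alone. By size of p the first were Il6, a cytokine gene, at 0.47 ± 0.13 (adjusted p = 0.388), the receptor chain gene Il12rb1 at 0.27 ± 0.096 (adjusted p = 0.417) and Il6st, the shared receptor chain gp130, at 0.31 ± 0.14 (adjusted p = 0.423). Against replicate 4 alone these 3 differed by 0.41, 0.095 and -0.015. Il6 was among the dimmest 40% of genes, at 5.61 and 5.14 with anti-ICOS against 4.88, 4.86, 4.92 and 4.97 with anti-CD3.

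Of the 10 genes 7 had upstream windows in the RefSeq table, 9 windows in all. That of Ebi3 is shown because it holds the one NF-kB match of the 9, at chr17:55952373-55952622 (GRCm38.p6, plus strand, 5′ to 3′), with the NF-kB motif and the NFAT core in capitals.
Ebi3 upstream: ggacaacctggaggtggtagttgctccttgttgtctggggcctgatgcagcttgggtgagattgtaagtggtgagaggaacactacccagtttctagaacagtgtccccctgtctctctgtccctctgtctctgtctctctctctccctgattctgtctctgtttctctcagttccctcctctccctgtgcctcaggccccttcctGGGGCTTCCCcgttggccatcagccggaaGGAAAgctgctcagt
The Ebi3 window holds the match GGGGCTTCCC to the NF-kB motif, beginning 44 bases before the start, and an NFAT core closer to it. Of 6 motifs searched over the 9 windows, 5 windows held an NFAT core (both of Foxp3, and 1 each of Nrp1, Entpd1 and Ebi3), which 55.6% of all windows hold, 2 a STAT motif (Foxp3 and Il1r2), 1 an NF-kB motif, 1 a TATA box, 1 an E-box (CACGTG, in the Il1r2 window, which has 2 copies) and 0 an AP-1 motif (TGANTCA). The NF-kB motif was found in 7.25% of all 32851 windows, the E-box in 6.02% and the AP-1 motif in 6.75%, and a match is a run of letters and not a bound site.

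Il1r2 encodes the decoy receptor for interleukin-1, which binds the cytokine without signalling. It read 6.66 and 6.60 with anti-ICOS, against 6.47, 6.55, 6.40 and 6.58 with anti-CD3. The anti-ICOS arrays were the highest, by a margin of hundredths, and the probe set was among the dimmest 40% of genes, where the offset makes differences smaller. The difference was 0.13 ± 0.079 (adjusted p = 0.444), it did not pass without replicate 4 (0.16 ± 0.071, adjusted p = 0.128), and its interval with all arrays ran from -0.056 to 0.32. With replicate 4 alone as reference it was 0.053, with an interval from -0.17 to 0.27.

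The ligand of this receptor was among the few genes called. Il1b, which encodes interleukin-1 beta, read 6.89 and 6.69 with anti-ICOS, against 6.17, 6.08, 6.21 and 6.11 with anti-CD3, and rose by 0.65 ± 0.084 (SE, adjusted p = 0.0463). Here replicate 4 was inside the range of replicates 1 to 3, and the probe set was among the dimmest 40% of genes. Il1b lost its call when any single array except replicate 4 was left out (adjusted p from 0.128 to 0.426), and against replicate 4 alone the difference was 0.68 (adjusted p = 0.107). Il1rn, which encodes the receptor antagonist, differed by 0.50 ± 0.12 (adjusted p = 0.296) and Casp1, which matures interleukin-1 beta, by 0.68 ± 0.19 (adjusted p = 0.411). Against replicate 4 alone Il1rn differed by 0.40 and Casp1 by 0.22. Of the 12 interleukin-1 axis genes 1 was called with all arrays (median 0.32), and without replicate 4 there were 8 higher and 0 lower, beside 17.1% and 12.7% of all genes. Monocytes and macrophages are a main source of interleukin-1 beta. Their summed markers are given below, and their part in the Il1b values was not tested.

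**Figure D2:**
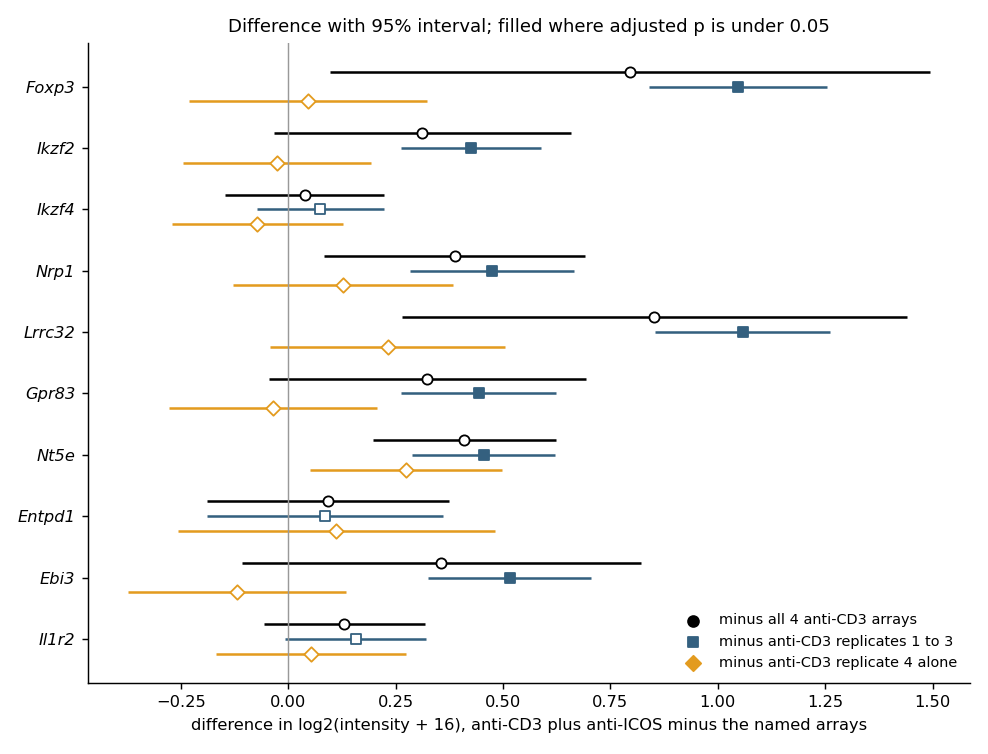
Differences in log2(intensity + 16) of the 10 genes, anti-CD3 plus anti-ICOS minus all 4 anti-CD3 arrays (circles), minus replicates 1 to 3 (squares) and minus replicate 4 alone (diamonds). Lines are 95% intervals from limma and filled symbols passed the test: 7 squares are filled, and 0 circles and 0 diamonds.

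Side by side, the 10 genes differed by a median of 0.34 with all arrays, beside -0.031 over all genes. The median was 0.45 without replicate 4, beside -0.041 over all genes, and 0.049 against replicate 4 alone, beside -0.013. Both anti-ICOS arrays exceeded all 4 anti-CD3 arrays for Nrp1, Lrrc32, Nt5e and Il1r2, 4 of the 10, and for 8.51% of all genes, and lay below them in 0 of the 10 and 14.7% of all genes. They exceeded replicates 1 to 3 in 9 of the 10 genes and in 28.5% of all genes, and lay below those 3 in 0 of the 10 and 35.1% of all genes. The anti-ICOS mean was above replicate 4 in 6 of the 10. The share of all genes above replicate 4 was not counted, so this count is not read as a rise. The comparisons share the anti-ICOS arrays and, in part, the anti-CD3 arrays, so their values are not independent of each other.

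Genes whose profile over the 6 arrays was closest to that of Foxp3, by the Euclidean distance between profiles with each gene's mean taken off, were Chst11 (0.180), Ms4a6d (0.204), the microRNA gene Mir142 (0.226), Slc20a1 (0.232) and the ribosomal RNA gene n-R5s136 (0.243). All 5 had replicate 4 with the anti-ICOS arrays: Chst11 read 8.43 and 8.54 with anti-ICOS, against 7.51, 7.49, 7.54 and 8.43 with anti-CD3. None of the 5 passed the test with all arrays (adjusted p from 0.414 to 0.421). Of the other members Lrrc32 was the closest to Foxp3, at a distance of 0.326 and place 27 among all genes, and Entpd1 the farthest.

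Other genes of regulatory T cells, and genes that act on Foxp3, were read as lists. Of 18 surface and effector genes measured 0 passed with all arrays, and the median was 0.33. The cytokine gene Il10 differed by 1.24 ± 0.20 (SE, adjusted p = 0.0958), the inhibitory receptor gene Klrg1 by 0.95 ± 0.16 (adjusted p = 0.103) and the activation marker gene Cd83 by 0.68 ± 0.12 (adjusted p = 0.141). Against replicate 4 alone these 3 differed by 0.78, 0.82 and 0.46, and 0 of the 18 passed. Without replicate 4, 11 of the 18 rose and 3 fell, beside 17.1% and 12.7% of all genes, so that the share that fell was near the background. Those that fell, named after their values were seen, were Ctla4, an inhibitory receptor that regulatory T cells need, by 0.37, Il2rb, a chain of the interleukin-2 receptor, by 0.47, and the inhibitory receptor gene Lag3 by 0.26. Set beside replicate 4 alone, Il2rb differed by 0.024 and Lag3 by -0.065. Il2ra, the interleukin-2 receptor chain CD25, rose by 0.26 without replicate 4 (adjusted p = 0.0230) and differed by 0.031 against replicate 4 alone. It read 11.65 and 11.63 with anti-ICOS against 11.39, 11.44, 11.32 and 11.61 with anti-CD3.

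Ctla4 read 11.17 and 11.11 with anti-ICOS, against 11.51, 11.56, 11.46 and 11.24 with anti-CD3. Both anti-ICOS arrays lay below all 4 anti-CD3 arrays, the opposite of Nt5e and Lrrc32, and replicate 4 was again the nearest. Its difference was -0.30 ± 0.10 with all arrays (adjusted p = 0.414) and -0.10 against replicate 4 alone.

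Of 28 genes that act on Foxp3, for or against it, 0 passed with all arrays (median 0.080). In the fit without replicate 4, 11 rose and 2 fell, beside 17.1% and 12.7% of all genes. The median against replicate 4 alone was -0.027. Prdm1, which encodes the repressor Blimp-1, differed by 0.89 ± 0.13 (adjusted p = 0.0671), Stat5a, a transducer of interleukin-2 signals, by 0.43 ± 0.086 (adjusted p = 0.189) and the nuclear receptor gene Nr4a3, which with its relatives promotes Foxp3, by 1.12 ± 0.24 (adjusted p = 0.226). In all 3 both anti-ICOS arrays exceeded every anti-CD3 array, and against replicate 4 alone they differed by 0.66, 0.38 and 0.53. The 2 that fell without replicate 4, named after their values were seen, were Dnmt1 by 0.71 and Uhrf1 by 1.07, which together copy DNA methylation at replication. With all arrays their differences were -0.55 ± 0.19 and -0.80 ± 0.31 (adjusted p = 0.417 each), and against replicate 4 alone they were -0.062 for Dnmt1 and -0.0023 for Uhrf1, where replicate 4, at 8.54, lay between the anti-ICOS arrays at 8.50 and 8.56.

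Over the 8 lists of related genes 119 of 128 entries were measured. With all arrays 2 of the 119 were called, or 1.68%, against 0.271% of all genes. Without replicate 4, 50 rose and 12 fell, or 42% and 10.1%, against 17.1% and 12.7% of all genes. Of the 89 markers of all cell types described next, 3.37% were called higher with all arrays. These were Apol7c, Fscn1 and Flt3, and Apol7c and Fscn1 were listed with their rise known. Without replicate 4 the markers gave 40.4% higher and 8.99% lower. The shares of the related genes without replicate 4 are therefore not particular to them. None of the 119 was called against replicate 4 alone. The lists were chosen with earlier results of these data known.

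**Figure D3:**
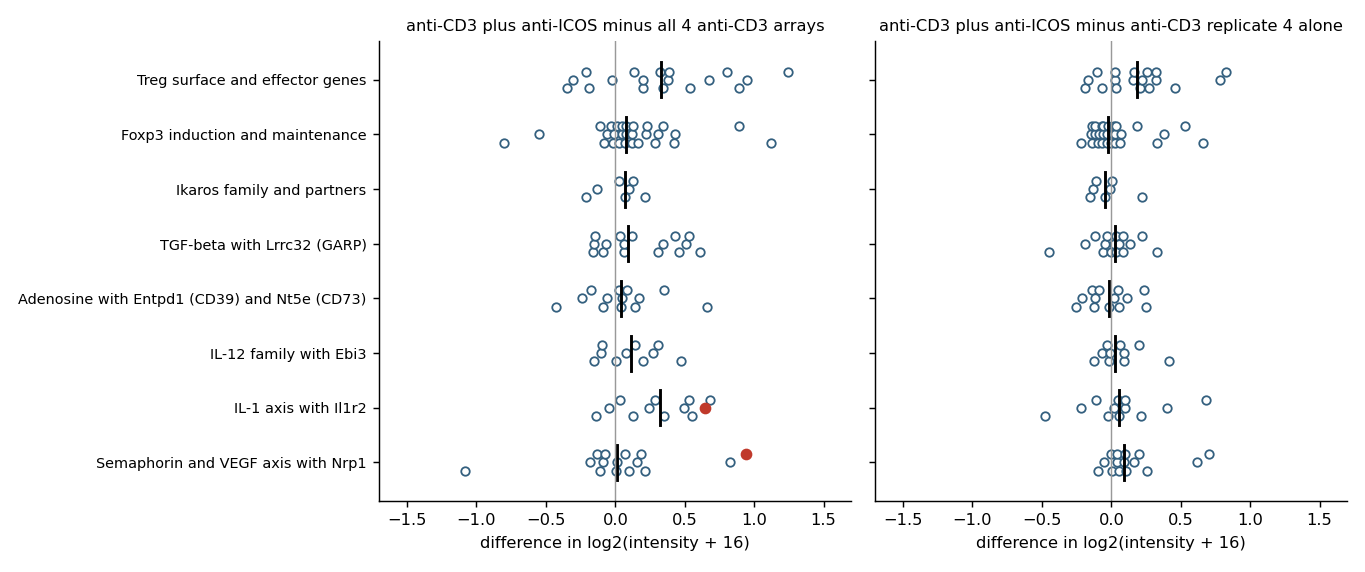
Each circle is 1 related gene, placed by its difference in log2(intensity + 16), anti-CD3 plus anti-ICOS minus all 4 anti-CD3 arrays (left) or minus anti-CD3 replicate 4 alone (right). Bars are list medians and filled circles passed the test: Il1b and Plxnd1 on the left, and 0 genes on the right.

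Markers of other cell types were read on the same arrays, as the sum of each list's intensities. The 13 dendritic cell markers summed to 5633 and 4924 with anti-ICOS, against 1327, 1369, 1335 and 1795 with anti-CD3. Of the 13, 9 lay above all 4 anti-CD3 arrays and 1 below, beside 8.51% and 14.7% of all genes. Apol7c and Fscn1 were put on that list with their rise known. Without them the sum was 2647 and 2180 against 987, 996, 1025 and 1307, with 7 of 11 above. The chemokine gene Ccl22 was the brightest of the 11 with anti-ICOS, at 10.04 and 9.70, and weighs most in that sum. Xcr1 lay below all 4 anti-CD3 arrays, and Clec9a, Cd209a and Clec10a overlapped. The 9 monocyte and macrophage markers summed to 1362 and 1999 with anti-ICOS, against 789, 800, 778 and 1293, so that replicate 4 came close to the lower anti-ICOS array. Of these 9 markers 3 lay above all 4 anti-CD3 arrays and 1 below, beside the same 8.51% and 14.7% of all genes, so the share below was near the background. Neutrophil markers summed to 769 and 1600, against 651, 626, 733 and 586. Of these 12 markers 7 lay above all 4 anti-CD3 arrays and 1, Camp, below, while Retnlg, Ly6g, Ltf and S100a9 overlapped. Mpo, Elane and Ngp weigh most in the higher sum, that of anti-ICOS replicate 2. They read 9.12, 8.60 and 7.82 there and 7.27, 7.17 and 6.19 on anti-ICOS replicate 1. NK cell markers summed to 8328 and 8456, against 6551, 6626, 6293 and 8297. B cell markers overlapped, at 21296 and 23451 with anti-ICOS against 19758 to 23470 with anti-CD3, and the T cell list was lower with anti-ICOS, at 26580 and 27619 against 28276 to 31975. The T cell sum rests on bright genes such as Cd4 and Cd3e: of its 9 genes 0 passed with all arrays, Trat1 differed by 1.01, Cd3d by -0.033 and Cd3g by -0.010. CD8 lineage markers summed to 5979 and 5961 with anti-ICOS, against 5047, 5186, 4810 and 6184. Mast cell and basophil markers gave 780 and 983 against 565 to 675, erythroid and platelet markers 455 and 550 against 354 to 426, and endothelial and stromal markers 1936 and 2025 against 2055 to 2251. Single genes of the other lymphocytes were read in both groups, the B cell receptor chain gene Cd79b at means of 12.64 with anti-ICOS and 12.48 with anti-CD3, and the CD8 chain gene Cd8b1 at 11.69 and 11.59.

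Replicate 4 was nearer to the anti-ICOS arrays than to replicates 1 to 3 in the sums of T cell, B cell, NK cell, CD8 lineage, monocyte, and endothelial and stromal markers. The NK cell sum rests on the bright Nkg7 and Klrd1. On replicate 4 these, Eomes, Klrk1 and Klra8 reached or passed the lower anti-ICOS array, and Tyrobp lay between the groups. Ncr1, at 5.64, and Klrb1c, at 5.59, lay within replicates 1 to 3 and below both anti-ICOS arrays. Gzma was lowest of all arrays on replicate 4, at 5.82. The dendritic cell sum of replicate 4 was nearer to replicates 1 to 3. For neutrophil, mast cell and basophil, and erythroid and platelet markers it had the lowest sum of all arrays, at 586, 565 and 354. No marker was at 0 on any array, the lowest intensity among them being 19.0. The part of other cells in the values of the 10 genes was not tested.

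**Figure D4:**
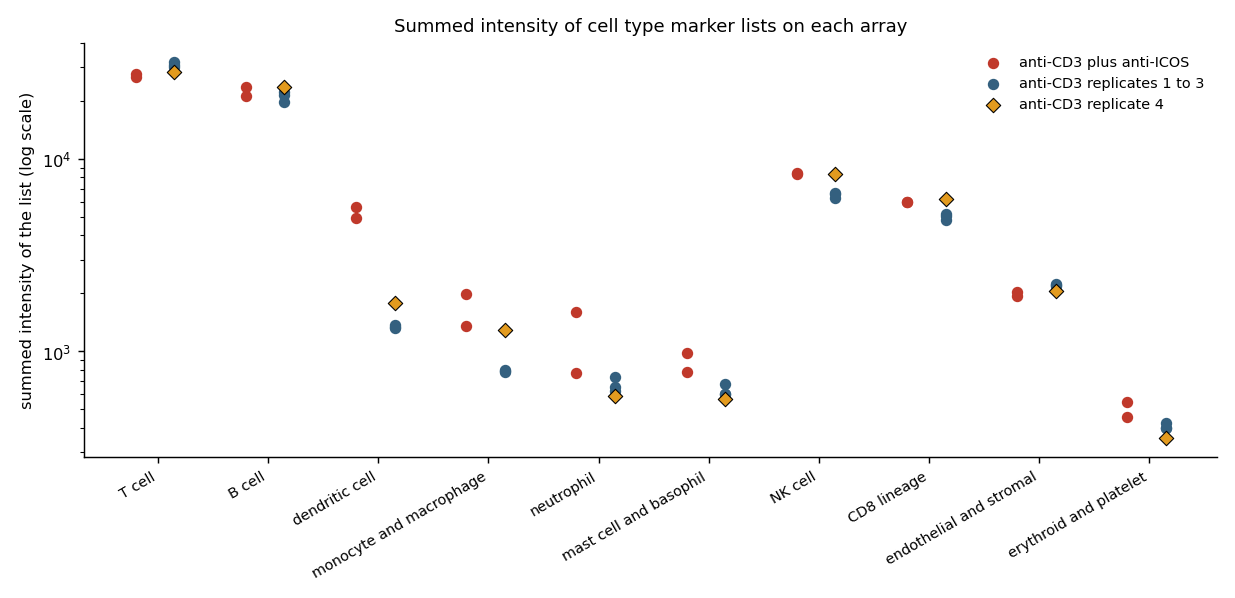
Summed intensity of 10 cell type marker lists on each array (log axis), with anti-CD3 plus anti-ICOS to the left of anti-CD3 in each list and anti-CD3 replicate 4 as a diamond. Dendritic cell markers summed to 5633 and 4924 with anti-ICOS and to at most 1795 with anti-CD3, whereas the T cell sum was lower with anti-ICOS.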

How the data were processed

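Biotin-labelled cRNA from 1 ug of RNA per culture was read on 1-colour arrays, per the labels' protocols. The deposited values are normalized probe set intensities on a linear scale, and the submitters' processing notes name MAS5 and no other tool. Not given in the sources used here is how they were normalized, background corrected and summarised. A shift of most genes in 1 direction may therefore not be visible. Of 34760 probe sets, 21640 carried 1 gene symbol (platform annotation), 1321 several and 11799 none here. The brightest of a gene's probe sets was kept, which gave 19937 genes, and each of the 10 genes described had 1. Values were analysed as log2(intensity + 16), and no filter was used.

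Groups came from the sample titles. Each difference is the anti-ICOS group less the anti-CD3 group, fitted with limma 3.58.1 in R 4.3.3 (lmFit, eBayes) over all genes, with two-sided p-values and Benjamini-Hochberg adjustment over all genes at 0.05. For replicate 4 as the only reference, replicates 1 to 3 were a level of their own that adds only to the spread. The fit was also run on simulated data with independent values for the same groups, in which 200 of the 19937 genes were altered. It found 81.2% of the 2-fold changes, found 98.6% of the 4-fold ones and made 9.2 false calls a run. No simulated array stood apart in many genes as replicate 4 did, so these shares may not hold for the 10 genes. The members and lists were chosen with earlier results of these data known. Named are the 10 genes, from each list the genes called or else the 3 of smallest p, and the 5 profiles nearest to Foxp3, and a few more where the text says so or a result turns on them. Upstream sequences and symbols are from RefSeq, GRCm38.p6, and the build behind the probe sets is not given in the sources used here. Alternatives were array weights, quantile normalization, a trended and robust prior, removal of the dimmest 40% of genes, median centring, every probe set, a replicate block, the mean of probe sets, offsets of 1 and 64, each array left out and a threshold of 0.1. Precision is limited by the number of arrays, with anti-ICOS by its 2. Python 3.11.15 with matplotlib 3.10.9 made the plots.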

Additional observations from a re-analysis of the deposited data

How the results depend on the processing

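With all 6 arrays weighted alike 0 of the 10 genes were higher and 0 lower. With each array left out in turn the count of higher genes ran from 0 to 7, and the 7 came without anti-CD3 replicate 4. It was 8 with array weights, which gave replicate 4 a weight of 0.15 against 4.53 for replicate 1, and 7 with the replicate block, which called 3389 of all 19937 genes higher (17%) and 3162 lower (15.9%). In the block fit anti-CD3 replicates 3 and 4 have no partner and do not enter the difference, which leaves 1 residual degree of freedom. The titles give only shared numbers, and the deviations of same-numbered arrays correlated at -0.039 and 0.10 across genes. Under the other alternatives run the count of higher genes was 0, and the count of lower genes was 0 under every alternative run.

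Foxp3, Ikzf2, Nrp1, Lrrc32, Gpr83, Nt5e and Ebi3 each passed under 3 of 17 alternatives: array weights, the replicate block and without replicate 4. Over the alternatives the adjusted p of Foxp3 ran from 0.000246 to 1.00, that of Lrrc32 from 0.000185 to 1.00 and that of Nt5e from 0.000388 to 0.875. Il1r2 passed with array weights alone (adjusted p = 0.0348).

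Some differences changed sign. Ikzf4 was -0.068 and Entpd1 -0.0047 with quantile normalization, and Entpd1 was -0.033 with the replicate block. With replicate 4 as the only reference Ikzf2 was -0.027, Ikzf4 -0.071, Gpr83 -0.035 and Ebi3 -0.12. None of these 7 values passed the test. Il1r2 and Il1b were removed by the filter on dim genes. Plxnd1 was also not past the threshold with median centring, over every probe set or with an offset of 64 (adjusted p = 0.0567, 0.0504 and 0.0874), and likewise Il1b (adjusted p = 0.0604, 0.0508 and 0.0930).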
